A study of Mus musculus with 6 samples.

Results

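The genes Hnf4a and Hnf4g, which encode the nuclear receptors HNF4A and HNF4G, were examined for open chromatin in crypts of the mouse intestine. ATAC-seq, in which a transposase tags DNA where chromatin is accessible, had been run on 3 WT and 3 Arid3a cKO samples, and 1 list of called peaks was deposited for each. The cKO animals were VillinCre-ERT2+/-; Arid3a fl/fl, so that Cre is made in epithelial cells that use the Villin promoter and becomes active with tamoxifen, while other cells of the gut wall keep Arid3a. The labels call the control animals Arid3a WT and do not say whether they carried the Cre transgene. Both groups received tamoxifen on 3 consecutive days and crypts were taken 1 month after the first dose. Neither the age of the animals nor whether each sample came from 1 animal is stated in the labels, so the tests measure the spread between these samples.

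A peak was a member when its summit, the base with the most fragments, lay in the body of either gene or within 50 kb of it. The lists were merged where peaks overlapped by at least 1 base. This gave 46 member peaks of 71286 in the genome, 31 around Hnf4a and 15 around Hnf4g, numbered here from left to right within each window. The members held 10 to 364 fragments at their summits.

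HNF4A and HNF4G bind as dimers to a direct repeat of 2 half-sites with a spacer of 1 base. They are close relatives that are both made in the intestinal epithelium, where they drive genes for lipid uptake, the brush border and other features of enterocytes. HNF4A can be transcribed from a pair of promoters. P1 is known from liver, kidney and gut, and P2, which lies upstream, is known from pancreatic islets and gut. The products differ at the amino end.

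Hnf4a (ENSMUSG00000017950.16) lies at chr2:163506808-163572910 on the plus strand of GRCm38, over 66.1 kb. Its P2 start is at 163506808, and 3 starts between 163546817 and 163547188 make up P1. Hnf4aos (ENSMUSG00000046840.16), an antisense gene of 47.9 kb, begins between P2 and P1 and runs leftwards across P2. Hnf4g (ENSMUSG00000017688.14) lies at chr3:3508030-3658052 on the plus strand, over 150.02 kb, with an upstream start at 3508030 and an internal start at 3634150.

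The DNA at 8 of these places is given so that the elements described can be recognised. All are on the plus strand of GRCm38. The P2 and P1 promoter sequences are from RefSeq, cut 11 bases into the transcript, and the others are the 201 bases centred on the summit of a member. Capitals mark exact matches on either strand to 5 consensus motifs, which were HNF4 (either CAAAGTCCA or, equally, CAAAGTTCA), ARID3 (either ATCAAA or, equally, ATTAAA), AP-1 (either TGACTCA or, equally, TGAGTCA), CDX (either TTTATGG or, equally, TTTATTG) and GATA (either AGATAA or, equally, TGATAA). A match describes the letters only and says nothing of binding.
Hnf4a P2 promoter, chr2:163506607-163506818, which holds 1 GATA match: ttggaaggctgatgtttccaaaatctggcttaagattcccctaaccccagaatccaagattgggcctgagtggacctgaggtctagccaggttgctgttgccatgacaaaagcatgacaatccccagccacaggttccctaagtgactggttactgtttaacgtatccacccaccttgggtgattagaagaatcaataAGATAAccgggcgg
Hnf4a P1 promoter, chr2:163546905-163547197, with no match: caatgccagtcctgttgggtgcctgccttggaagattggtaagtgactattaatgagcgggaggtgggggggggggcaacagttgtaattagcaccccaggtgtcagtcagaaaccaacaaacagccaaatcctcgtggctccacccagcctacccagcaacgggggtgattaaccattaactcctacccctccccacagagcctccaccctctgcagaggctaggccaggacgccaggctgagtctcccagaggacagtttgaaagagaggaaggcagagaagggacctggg
Hnf4a peak 12, chr2:163527238-163527438, intron between P2 and P1, with an HNF4 and a GATA match: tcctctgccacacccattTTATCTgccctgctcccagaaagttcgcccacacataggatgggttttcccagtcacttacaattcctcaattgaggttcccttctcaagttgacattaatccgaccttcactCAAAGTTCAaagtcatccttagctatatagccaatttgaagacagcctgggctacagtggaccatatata
Hnf4a peak 15, chr2:163535024-163535224, intron between P2 and P1, with no match, shown because its difference between genotypes was the largest among the 24 members called in all 6 samples: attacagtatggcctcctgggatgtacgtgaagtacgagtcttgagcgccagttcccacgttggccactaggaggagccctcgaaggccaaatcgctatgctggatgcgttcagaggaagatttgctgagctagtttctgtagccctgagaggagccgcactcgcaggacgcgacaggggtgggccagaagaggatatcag
Hnf4a peak 23, chr2:163580288-163580488, downstream of the gene, with 2 CDX and 1 GATA match: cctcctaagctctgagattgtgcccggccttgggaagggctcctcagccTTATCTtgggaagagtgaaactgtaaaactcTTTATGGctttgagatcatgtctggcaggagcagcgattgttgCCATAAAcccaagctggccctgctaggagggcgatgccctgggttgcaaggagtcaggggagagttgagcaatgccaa
Hnf4g peak 8, chr3:3582966-3583166, intron, the other member with an HNF4 match near its summit: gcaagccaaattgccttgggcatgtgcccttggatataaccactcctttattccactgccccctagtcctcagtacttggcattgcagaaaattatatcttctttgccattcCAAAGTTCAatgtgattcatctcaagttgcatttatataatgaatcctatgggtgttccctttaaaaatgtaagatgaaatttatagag
Hnf4g peak 13, chr3:3633970-3634170, at the internal start, with 2 GATA and 1 CDX match: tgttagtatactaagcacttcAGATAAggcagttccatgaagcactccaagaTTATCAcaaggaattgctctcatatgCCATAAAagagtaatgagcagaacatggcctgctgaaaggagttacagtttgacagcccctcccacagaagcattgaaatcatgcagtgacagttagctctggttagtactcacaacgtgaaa
Hnf4g peak 15, chr3:3645718-3645918, intron after the internal start, with AP-1, CDX and GATA matches: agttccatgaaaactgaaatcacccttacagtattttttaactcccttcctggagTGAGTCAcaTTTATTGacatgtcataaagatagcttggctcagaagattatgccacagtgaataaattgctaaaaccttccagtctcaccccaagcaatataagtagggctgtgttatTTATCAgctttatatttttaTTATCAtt

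Both windows were open in every sample, and Hnf4a was far more densely covered than Hnf4g. In the Hnf4a window 22, 24 and 28 peaks were called in WT 1, 2 and 3, against 27, 26 and 25 in cKO 1, 2 and 3. The WT samples held both the lowest and the highest number. The means were 24.7 ± 3.06 (SD, n = 3) in WT and 26 ± 1 (SD, n = 3) in cKO, with p = 0.6 by an exact two-sided permutation test, which can go no lower than 0.1 here. In the Hnf4g window 10, 11 and 9 peaks were called in WT against 11, 9 and 13 in cKO, so that the groups overlapped. The means were 10 ± 1 and 11 ± 2 (SD, n = 3 each), with p = 0.7 by the same exact test. The bases covered were 17.6 ± 3.18 kb in WT and 19.4 ± 1.64 kb in cKO for Hnf4a (exact p = 0.5, n = 3 each), and 5.65 ± 0.159 kb and 7.13 ± 1.86 kb for Hnf4g (exact p = 0.4, n = 3 each). The higher mean number in cKO at Hnf4a became lower, by 1.33 peaks, when each list was cut to the length of the shortest, and lower by 0.333 peaks with flanks of 10 kb.

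The number of peaks per 100 kb set these loci against other genes. Averaged over the 6 samples, the Hnf4a window held 15.3 peaks per 100 kb, with 13.2 to 16.9 in single samples. This was above 99.2% of 21911 protein-coding genes measured in the same way, whose median was 3.72. The Hnf4g window held 4.20 per 100 kb, ranging from 3.60 to 5.20, at the 54.6th percentile of genes. Genes of other intestinal transcription factors lay between them. Gata4 had 12.7 per 100 kb, Cdx2 11.3, Cdx1 8.95, Klf5 6.30 and Gata6 6.24. The Hnf4a window also includes the promoters of Fitm2, Ttpal and other neighbours, whereas no other protein-coding gene lies in that of Hnf4g.

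**Figure D1:**
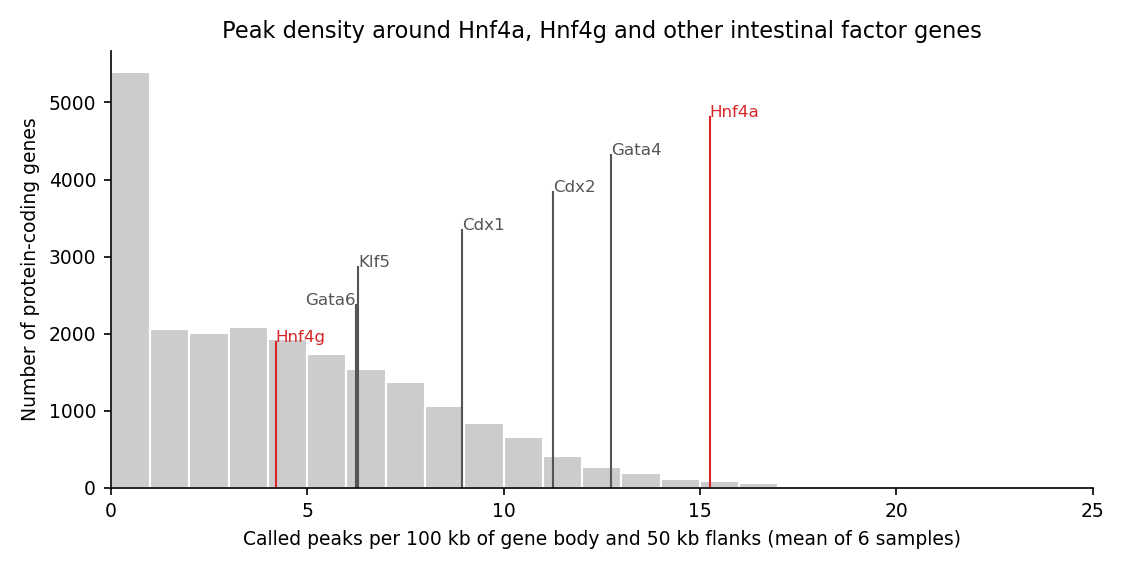
Number of protein-coding genes (y axis) by called peaks per 100 kb of gene body and 50 kb flanks, mean of 6 samples (x axis). Lines mark 7 genes of intestinal transcription factors, with Hnf4a at 15.3 in the upper tail and Hnf4g at 4.20 near the middle.

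The surroundings differed as well. Just inside the left edge of the Hnf4a window, at 1.94 kb from it, a peak was called in 5 samples, and the nearest one outside, at 4.02 kb, in 1. At the right edge the nearest peaks lay 2.25 kb inside (6 samples) and 4.04 kb outside (2 samples). Around Hnf4g, the outermost member on the left lay 45.0 kb inside the edge and was called in cKO 3 only, and none lay further left on the chromosome in any list. On the right the last member lay 62.2 kb inside the edge, and the next peak on the chromosome 1512 kb beyond it.

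Most members were not unique to a genotype. Of the 31 Hnf4a members 17 (54.8%) were called in all 6 samples, 10 in 2 to 5 samples and 4 in a single one. Of the 15 Hnf4g members 7 (46.7%) were called in all 6, 4 in 2 to 5 and 4 in one. Over all 71286 peaks, 45.9% were called in all 6 samples. No member was found in every cKO sample and no WT sample, or the reverse, against 0.464% and 0.111% of all peaks. Among members missing from at least 1 list, 13 were called in more cKO than WT samples, 6 in more WT samples and 3 in equal numbers, against 20286, 11160 and 7092 of all peaks. The number of peaks called in a list varied from 40492 in WT 1 to 58297 in cKO 1, and its part in these counts was not tested.

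By position, 8 Hnf4a members lay upstream of the gene, the peak at P2 included. A further 8 lay between P2 and P1, 5 at or after P1 and 10 downstream. Of the 10 downstream, 7 were called in all 6 samples. At Hnf4g 2 members lay upstream, 11 between its starts, the peaks at both starts included, 2 after the internal start and none downstream.

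**Figure D2:**
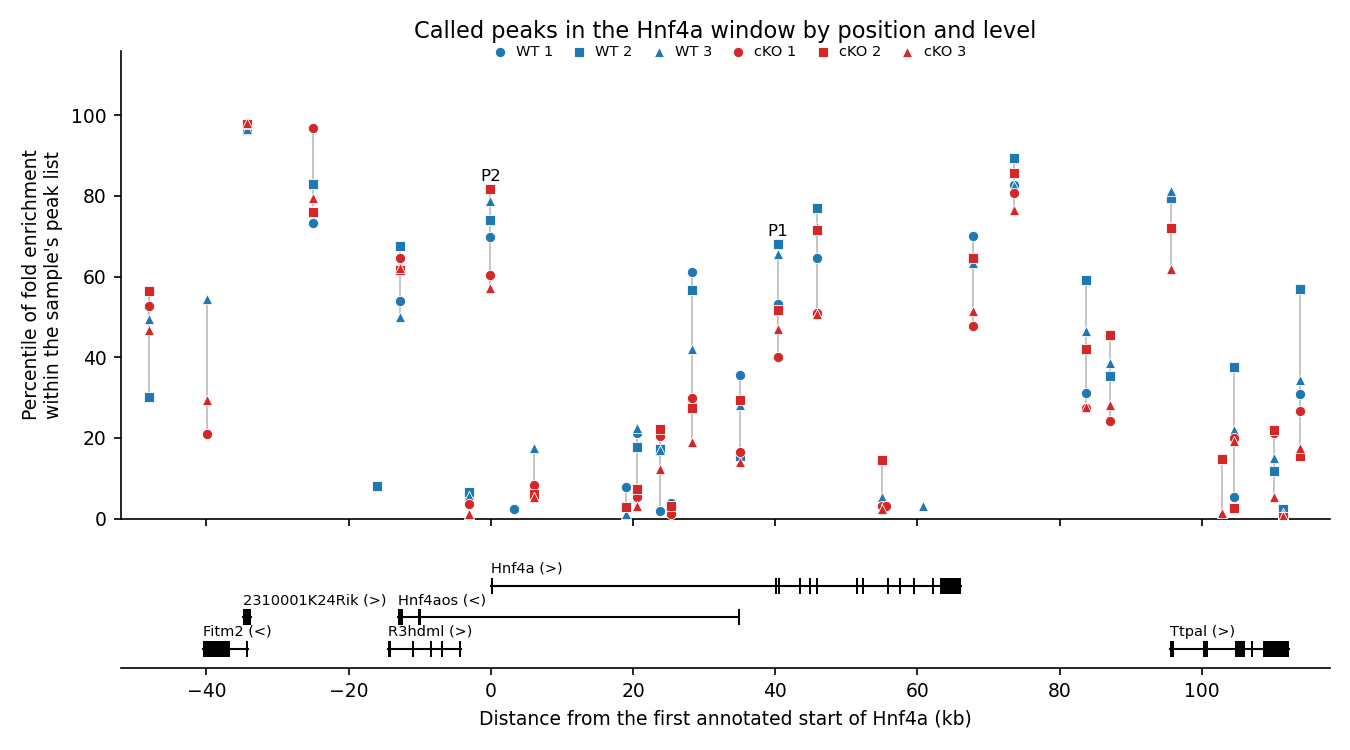
Each point is a called peak of 1 sample in the Hnf4a window (WT blue, cKO red), by distance of its merged summit from the P2 start in kb (x axis) and by the percentile of its fold enrichment in that sample's list (y axis), with grey lines joining the samples and genes with their exons below (> plus strand, < minus strand). The P2 points span 57.1 to 81.6 and the P1 points 40.1 to 68.0.

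**Figure D3:**
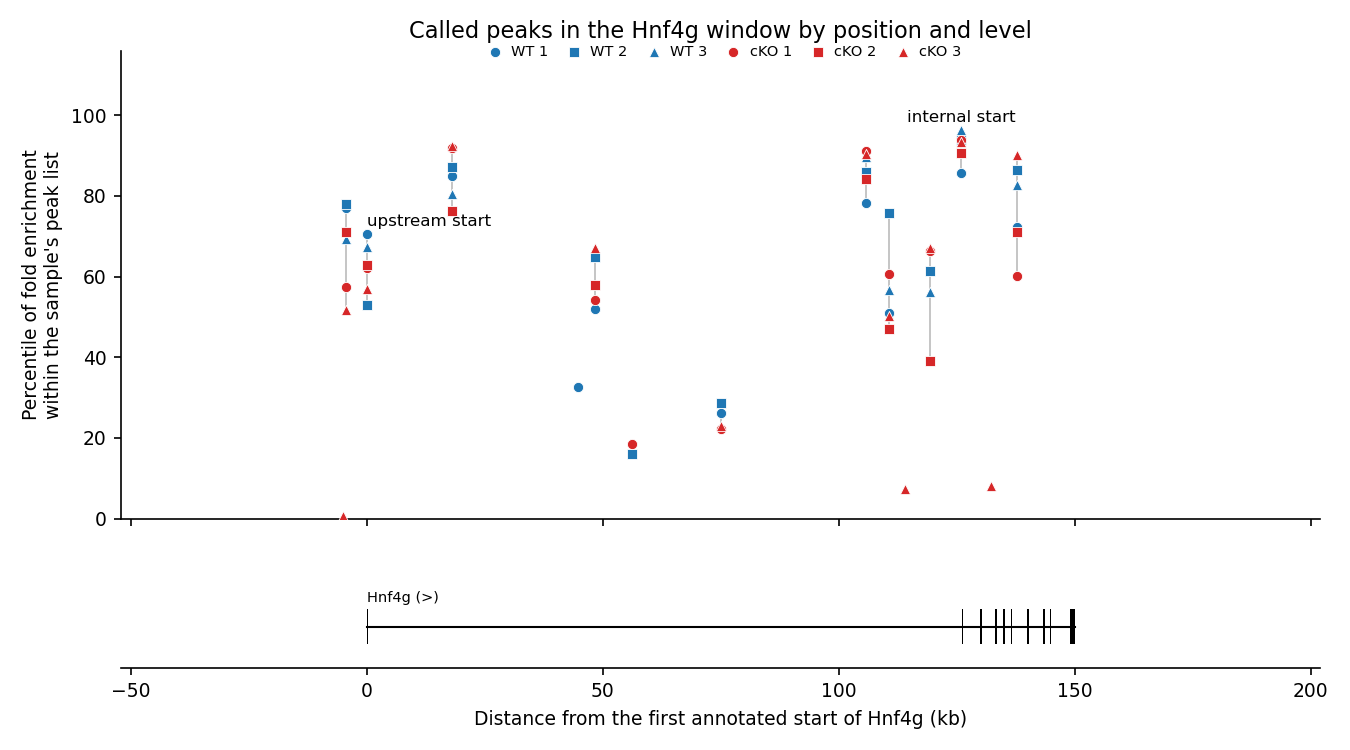
Called peaks in the Hnf4g window, plotted as distance from the upstream start in kb (x axis) against the percentile of fold enrichment within the sample's list (y axis), WT blue and cKO red. The points at the internal start lie at 85.8 to 96.4, above those at the upstream start at 52.97 to 70.7, and no point lies to the right of the gene.

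The level of a peak was taken from its fold enrichment, which divides the fragments at the summit by the local background, and from the percentile of that value in the sample's own list. At P2 (Hnf4a peak 8, chr2:163506318-163507452) the percentile was 69.9, 74.0 and 78.7 in WT 1, 2 and 3, against 60.5, 81.6 and 57.1 in cKO 1, 2 and 3. The fold enrichment was 7.07, 9.37 and 10.01 in WT against 7.28, 10.2 and 6.57 in cKO. cKO 2 was the highest of all 6 by both measures and cKO 3 the lowest, so the groups overlapped. On a log2 scale normalized between lists the cKO samples were lower by 0.21 (SE 0.18, limma, adjusted p = 0.753), with a 95% interval of -0.57 to 0.15. The difference was -0.42 without cKO replicate 2, -0.099 without cKO replicate 1 and -0.11 without cKO replicate 3. With the −log10 q in place of fold the difference at P2 was 0.0045, of the opposite sign.

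At P1 (Hnf4a peak 17, chr2:163546589-163547756), whose median summit lies in a first exon of P1 transcripts, the percentile was 53.2, 68.0 and 65.6 in WT against 40.1, 51.6 and 46.9 in cKO. Summits of single samples ran from 163547125 to 163547336, and those of WT 2, WT 3 and cKO 1 lay to the left of that exon. The fold enrichment was 5.49, 8.38 and 7.86 in WT against 5.47, 6.04 and 5.75 in cKO. By percentile every cKO sample was below every WT sample, although cKO 2 and WT 1 were only a short distance apart. By fold before normalization cKO 2 and cKO 3 lay above WT 1, so that the groups overlapped. The fragments at the summit were 48, 93 and 128 in WT against 148, 64 and 124 in cKO. The normalized log2 difference was -0.35 (SE 0.18, 95% interval -0.72 to 0.020), which did not pass the test (limma, adjusted p = 0.688).

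P2 ranked above P1 in 6 of 6 samples. The gap in percentile was 16.7, 6.02 and 13.1 in WT against 20.4, 30.0 and 10.2 in cKO, with a mean of 16.1 ± 8.44 (SD, n = 6). It overlapped between the genotypes.

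The Hnf4g starts differed more. At the upstream start (Hnf4g peak 3, chr3:3507432-3508873) the percentile was 70.7, 52.97 and 67.3 in WT against 62.1, 62.8 and 56.8 in cKO. At the internal start (Hnf4g peak 13, chr3:3633483-3634740) it was 85.8, 93.9 and 96.4 in WT against 93.9, 90.8 and 93.5 in cKO. By fold the internal start ranked higher in 6 of 6 samples, by 15.1 to 40.9 percentile points (mean 30.3 ± 8.85, SD, n = 6). Its peak was at a percentile of 85.8 or above in every list. The fragments at the summit did not follow this order. They were 60, 62 and 102 in WT and 161, 61 and 115 in cKO at the upstream start. At the internal start they were 42, 67 and 88 in WT and 128, 55 and 91 in cKO. The local background was 7.53 to 20.8 fragments at the upstream start and 3.41 to 8.88 at the internal start. Neither start differed between genotypes beyond the spread. The log2 difference was -0.092 (SE 0.18, limma, adjusted p = 0.894) at the upstream start, with a 95% interval of -0.46 to 0.28. It was -0.018 (SE 0.11, limma, adjusted p = 0.967) at the internal start, with an interval of -0.24 to 0.20.

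The other strong elements were identified as the 3 peaks of each window away from the promoters with the highest mean percentile. At Hnf4a these were peaks 23, 4 and 18. Peak 23 (chr2:163579881-163581119), which lies between Hnf4a and Ttpal, 73.6 kb from the P2 start, had percentiles of 82.6, 89.4 and 82.5 in WT against 80.8, 85.7 and 76.6 in cKO. It ranked above P1 in all 6 samples and above P2 in all 6. Its genotypes overlapped, with a log2 difference of -0.14 (SE 0.14, limma, adjusted p = 0.775).

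Peak 4 (chr2:163481479-163482291), at -25.01 kb from the P2 start, had 73.3, 82.9 and 76.1 in WT against 96.9, 76.0 and 79.5 in cKO. The value of cKO 1 stood above the others, and the log2 difference was 0.21 (SE 0.16, limma, adjusted p = 0.733). Without cKO replicate 1 it was 0.0038. Peak 18 (chr2:163552031-163553312), in an intron downstream of P1, had 64.7, 76.9 and 72.3 in WT against 51.0, 71.7 and 50.7 in cKO. Only cKO 2 fell within the WT range, and the log2 difference was -0.33 (SE 0.18, limma, adjusted p = 0.690).

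At Hnf4g the corresponding peaks were 9, 4 and 15, all in introns. Peak 9 (chr3:3613390-3614303) had percentiles of 78.2, 86.0 and 89.6 in WT against 91.2, 84.2 and 90.4 in cKO. Peak 4 (chr3:3525693-3526645) had 85.0, 87.3 and 80.5 in WT against 91.8, 76.4 and 92.4 in cKO. In both, cKO 1 and cKO 3 were the highest samples and cKO 2 lay within or below the WT range. Their log2 differences were 0.090 (SE 0.12, limma, adjusted p = 0.841) and 0.081 (SE 0.14, limma, adjusted p = 0.873). Peak 15 (chr3:3645531-3646698) had 72.3, 86.5 and 82.7 in WT against 60.2, 71.2 and 90.1 in cKO, with the highest and the lowest value both in cKO (log2 difference -0.20, SE 0.17, limma, adjusted p = 0.760).

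The comparison between genotypes was then made over the 24 members called in all 6 samples, within a fit on all 32748 such peaks. None of the 24 passed limma at an adjusted p below 0.05, and neither did any other peak in either direction (0% of 32748). Adjusted p of the members ran from 0.629 to 0.967. At an unadjusted p below 0.05, 3 members were lower in cKO and 0 higher, against 2.5% and 4.86% of all peaks, which were 820 and 1592. The 3 were Hnf4a peaks 12, 15 and 26.

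Of the 17 Hnf4a members tested 13 had a lower mean in cKO and 4 a higher one, with a median log2 difference of -0.21. Of the 7 Hnf4g members 5 were lower, with a median of -0.092. Over all 32748 peaks 53.7% were lower and the median was -0.018. With the −log10 q in place of fold, 9 of the 17 Hnf4a members and 4 of the 7 at Hnf4g were lower, against 49.6% of all peaks. Neighbouring peaks come from the same samples and are not separate replicates.

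In 5 Hnf4a members every cKO sample lay below every WT sample, against 6.08% of all peaks. These were peaks 12, 15, 17 (P1), 26 and 31. In 2 members, peaks 3 and 13, every cKO sample lay above, against 5.86%, and of the 7 at Hnf4g there was none in either direction. The count depended on the scaling, with 2 below and 0 above when the lists were not normalized, against 3.39% and 2.67% of all peaks. Those 2 were peaks 12 and 15. Without cKO replicate 2, 12 of 18 Hnf4a members lay below, against 23.6% of all peaks, and 2 above, against 16.1%. At Hnf4g 1 of 7 then lay below and 2 above, and without WT replicate 3, 2 of 8 lay below, against 13.5% of all peaks.

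**Figure D4:**
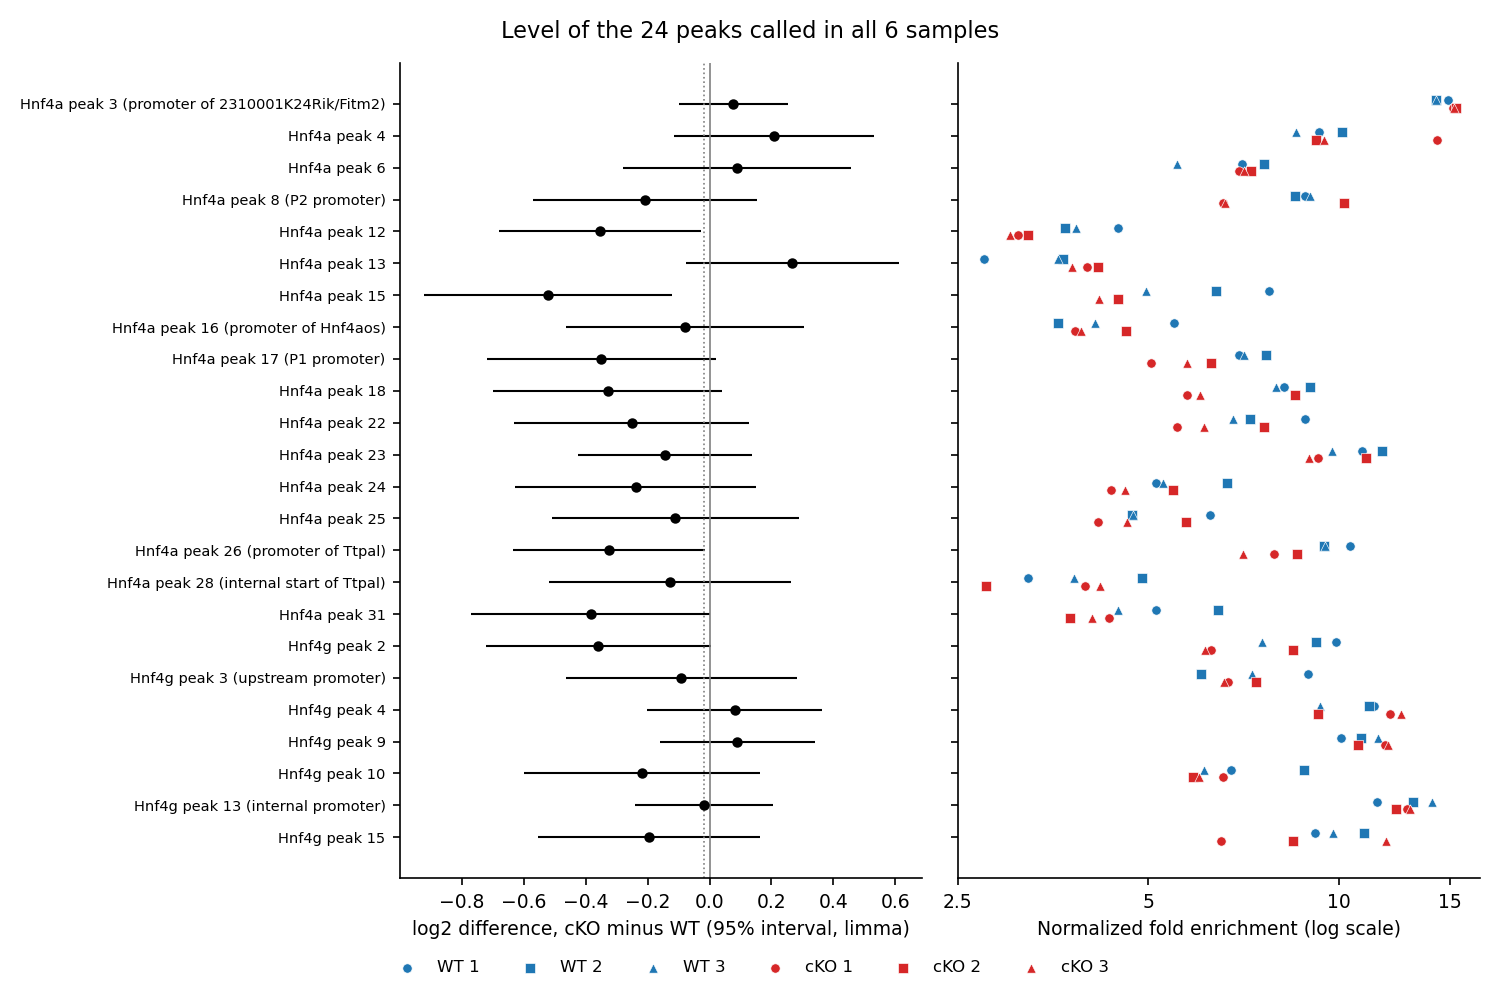
The 24 members called in all 6 samples (rows), with the log2 difference of cKO minus WT and its 95% interval from limma (left, dotted line at the median of all peaks, -0.018) and the normalized fold enrichment of each sample on a log axis (right, WT blue, cKO red). The intervals of Hnf4a peaks 12, 15 and 26 lie below 0 before adjustment over all peaks.

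Hnf4a peak 15 (chr2:163534699-163535475), 28.3 kb into the first intron from P2 and also within an intron of Hnf4aos, had the largest log2 difference of the 24 members tested. Its percentile was 61.1, 56.6 and 42.1 in WT against 29.99, 27.3 and 18.999 in cKO. Its fold enrichment was 6.14, 6.88 and 5.44 in WT against 4.69, 4.39 and 4.01 in cKO, so that the 3 cKO samples were the lowest by both measures. The log2 difference was -0.52 (SE 0.19, 95% interval -0.92 to -0.12), with an unadjusted p of 0.0127 and an adjusted p of 0.629 from limma. It ranged from -0.69 to -0.41 when 1 sample was left out, and it was -0.67 with the −log10 q in place of fold. Before normalization the −log10 q overlapped between the groups, at 25.4, 42.8 and 39.1 in WT against 47.8, 14.9 and 29.1 in cKO.

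Hnf4a peak 12 (chr2:163526575-163527771), in the same intron and holding the HNF4 match printed above, was weaker. Its percentile was 21.3, 17.7 and 22.6 in WT against 5.38, 7.37 and 3.18 in cKO. By percentile all 3 cKO samples were below all 3 WT samples. The fragments at its summit were 29, 35 and 51 in WT against 61, 27 and 50 in cKO. The local background was 6.85, 8.04 and 11.5 fragments in WT against 19.97, 7.34 and 17.5 in cKO. The log2 difference was -0.35 (SE 0.16, limma, adjusted p = 0.670).

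Peak 13 (chr2:163530359-163531254), the next member to the right, had percentiles of 1.80, 17.3 and 16.998 in WT against 20.5, 22.2 and 12.3 in cKO. By percentile WT 2 and WT 3 lay above cKO 3, whereas on the normalized scale every cKO sample was above every WT sample (log2 difference 0.27, SE 0.17, limma, adjusted p = 0.704). The difference was 0.12 without WT replicate 1.

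The remaining non-overlapping members lay at or beyond neighbouring genes. Peak 26 (chr2:163602185-163603202), at the promoter of Ttpal, a gene for a tocopherol transfer protein-like factor, had 80.3, 79.6 and 81.3 in WT against 72.3, 72.1 and 61.9 in cKO. The fragments at its summit were 63, 93 and 128 in WT against 160, 64 and 94 in cKO. The log2 difference was -0.33 (SE 0.15, limma, adjusted p = 0.674). Peak 31 (chr2:163620104-163621024), beyond Ttpal, had 30.95, 56.9 and 34.3 in WT against 26.8, 15.5 and 17.5 in cKO (log2 difference -0.38, SE 0.19, limma, adjusted p = 0.677). Peak 3 (chr2:163471914-163472925), at the promoter that Fitm2, a gene of lipid droplet formation, shares with 2310001K24Rik, was the strongest member of the Hnf4a window. Its percentile was 96.8, 96.4 and 96.7 in WT against 98.2, 97.9 and 98.0 in cKO. The groups did not overlap, but the log2 difference was only 0.077 (SE 0.086, limma, adjusted p = 0.807) and was -0.027 when lists were centred on their medians.

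Other members were described by their range. The peak at the start of Hnf4aos (Hnf4a peak 16, chr2:163540150-163542277) was at percentiles of 14.2 to 35.6, below P1 in every sample, and its log2 difference was -0.080 (SE 0.19, limma, adjusted p = 0.914). Hnf4g peak 2 (chr3:3503480-3504064), 4355 bp to the left of the upstream start, had 77.1, 78.0 and 69.4 in WT against 57.4, 71.2 and 51.7 in cKO. Only cKO 2 reached into the WT range (log2 difference -0.36, SE 0.18, limma, adjusted p = 0.677). The 8 members called in a single sample were at percentiles of 0.739 to 32.7 in their lists, and 7 of them were below 10.

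The sequence around member summits was searched next, without any test. The HNF4 motif occurred within 100 bp of the summit in 2 of 46 members (4.35%, Wilson 95% interval 1.201 to 14.5) and in 2.51% of all 71286 peaks. These were Hnf4a peak 12 and Hnf4g peak 8. The Hnf4g one was called in 4 samples, 2 of each genotype, at percentiles of 22.2 to 28.6. Over whole peaks the motif was found in 4 members (8.70%) and in 5.45% of all peaks.

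CDX matches were found in 12 of 46 members (26.1%, 15.6 to 40.3) against 8.49% of all peaks, with 7 at Hnf4a and 5 at Hnf4g. CDX1 and CDX2 are homeobox factors of intestinal identity. GATA matches were found in 14 members (30.4%, 19.1 to 44.8) against 20.5%. The ARID3 motif was found in 9 members (19.6%, 10.7 to 33.2) against 16.1%, and AP-1 in 3 (6.52%, 2.24 to 17.5) against 8.10%. These intervals cover counting error only. The CDX share over whole peaks was 34.8% of members and 22.9% of all peaks.

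The RefSeq promoters, 32544 in number, had a median length of 300 bases. Among them the HNF4 motif occurred in 0.870%, ARID3 in 22.9%, AP-1 in 5.19%, CDX in 7.13% and GATA in 18.5%. The base composition also set the loci apart. The median A+T content of the 201 bases around the summit was 48.8% at Hnf4a, equal to that of all peaks, and 61.7% at Hnf4g. Several of these motifs are themselves rich in A and T, and the part of base composition in their shares was not tested.

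Promoters of genes known to act with or on HNF4 were read from the same fit. List A held 15 genes of regulators, partners and other receptors of the same DNA element, and all 15 had a promoter peak. Of these, 14 were called in all 6 samples. None passed the test (limma, adjusted p of at least 0.670), 11 were lower and 3 higher in cKO, and the median log2 difference was -0.18. Gata4 and Cdx2, factors that work beside HNF4A in the gut, had -0.16 (SE 0.18, adjusted p = 0.807) and -0.29 (SE 0.17, adjusted p = 0.695). Smad4, which mediates BMP signals, had -0.18 (SE 0.14, adjusted p = 0.731). In 2 genes, Gata6 (log2 difference -0.35) and Nr2f2 (-0.38), every cKO sample lay below every WT sample, and in none above, against 6.08% and 5.86% of all peaks. At an unadjusted p below 0.05, 2 were lower and 0 higher, against 2.5% and 4.86% of all peaks.

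List B held 15 enterocyte genes, targets of HNF4 among them. A summit in the promoter window was found for 11, and 10 were called in all 6 samples. None passed the test (limma, adjusted p of at least 0.670), 7 were lower and 3 higher in cKO, with a median log2 difference of -0.13. Apob, which packages dietary lipid, was the one gene of the 10 whose cKO samples all lay below (log2 difference -0.16, SE 0.16, adjusted p = 0.788), against 6.08% of all peaks, and in none did they all lie above, against 5.86%. Mttp, which loads lipid onto it, was near the top of every list, at percentiles of 98.1 to 99.904, with a difference of 0.033 (SE 0.090, adjusted p = 0.927). Clec2e had -0.18 (SE 0.20, adjusted p = 0.807) and Slc30a10, a manganese transporter, had -0.0071 (SE 0.17, adjusted p = 0.991). At an unadjusted p below 0.05, 1 was lower and 0 higher, against 2.5% and 4.86% of all peaks.

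The tissue label was checked by promoters overlapped by a called peak. Of 8 epithelial genes 7 had such a peak in all 6 samples, Vil1, Epcam and Cdx2 among them, and Krt20, a gene of mature cells, in 1. All 6 stem and cell division genes, Lgr5 and Olfm4 included, had one in all 6 samples. Of 5 leukocyte genes, Ptprc included, 0 had one in any sample. Of 5 genes of mesenchyme and endothelium, the mesenchymal genes Col1a1 and Pdgfra had one in all 6 samples, and the mesenchymal Col1a2 and the endothelial Pecam1 and Cdh5 in none. In the tissues known for the HNF4A promoters, 1 of 5 liver genes (Ttr) and 1 of 3 islet genes (Pdx1, also a gene of the duodenum) had one in all 6 samples, and Alb, Ins1 and Ins2 in none. Secretory genes were mixed, with Atoh1 in 6 samples, Lyz1 and Chga in 5, Dclk1 in 2 and Muc2 in 0. The Arid3a promoter peak was called in 6 of 6 samples, which does not check the deletion.

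The promoters whose normalized log2 fold over the 6 samples was most like that of P1 were Arhgef37 (Pearson r = 0.992), Cdkn3 (0.988) and Sh3rf1 (0.988), among 12234 genes, of which 2.47% had r above 0.9. For the internal start of Hnf4g they were Eif2ak2 (0.993), Ppp2r2b (0.989) and Rnf187 (0.987), with 0.744% above 0.9. The 6 points of each correlation share the libraries, and the values are given as descriptions.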

How the data were processed

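The authors ran ATAC-seq libraries of intestinal crypts from 3 WT and 3 Arid3a cKO samples through the nf-core/atacseq pipeline, which aligned reads to GRCm38, removed blacklisted regions and called narrow peaks per sample with MACS2, without a control. The peak lists deposited by the authors give a score (10 times the −log10 q value, in whole numbers), a fold enrichment over local background, −log10 p and −log10 q. A read count per peak was not used here. Whole fragment numbers at summits were recovered from the deposited fold and −log10 p values in 100% of the peaks sampled per list. The commonest background value among the peaks sampled was 1.75 to 2.29 fragments per base, depending on the list. The local background that divides the fold of a member varied more widely. It ran from 1.75 fragments (Hnf4g peak 12, cKO 2) to 35.7 (Hnf4a peak 23, cKO 1).

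Peaks of chromosomes 1 to 19 and the sex chromosomes were ranked by fold within each list and merged by an overlap of at least 1 base. Genes came from GENCODE M21, and a promoter peak had its summit from 1000 bp upstream to 100 bp downstream of an annotated start. Log2 fold was quantile normalized over the 32748 peaks called in all 6 lists and tested with limma 3.58.1 in R 4.3.3 (eBayes with trend, Benjamini-Hochberg over all of these peaks, threshold 0.05). Peaks missing from a list have no value there and were not imputed. The fit was also run on simulated data with the same spread for every peak and with shifts larger than any difference of a member. That run therefore does not show how well differences of the size seen here could be found. Counts and bases per window were set against each other with the exact permutation test (two-sided, 6 samples). Other computations used Python 3.11.15, pandas 2.3.3 and scipy 1.17.1. Promoter sequences were taken from RefSeq (GRCm38.p6) by gene symbol, and 1 of the 2 genes matched. Peaks described singly were those at the annotated starts, the 3 strongest others of each window, and any that passed the test or were called in 3 of 3 samples of 1 genotype and 0 of 3 of the other, of which there were none. Peaks whose groups did not overlap, Hnf4a peak 16 and Hnf4g peak 2 were added after their values were seen. The members and gene lists were chosen with earlier results of these data known.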

Additional observations from a re-analysis of the deposited data

How the results depend on the processing

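Under each alternative 0 members and 0 genes of either list passed limma in either direction. Leaving out 1 sample at a time moved the difference in number of peaks (cKO minus WT) from 0 (without WT 1) to 3 (without WT 3) at Hnf4a and from 0 (without cKO 3) to 2 (without cKO 2) at Hnf4g, and that in covered kb from 0.241 to 3.42 and from 0.726 to 2.52. The Hnf4a number turned to -1.33 with lists of equal length and to -0.333 with flanks of 10 kb. The number of Hnf4a members with every cKO sample below was 2 without normalization (3.39% of all peaks). It was 4 with the −log10 q (6.26%) and 4 of 15 with a −log10 q of at least 5 (6.03%). With a sample left out it was 5 to 12 (8.77% to 23.6% of all peaks), 12 without cKO 2. The number above was 1 with lists centred on their medians, with the −log10 q, with the rank score and with a −log10 q of at least 5 (4.66% to 6.34% of all peaks), 0 without normalization (2.67%) and 2 to 3 with a sample left out (8.49% to 16.1%), 3 without WT 1. At Hnf4g 1 member lay above with the −log10 q, and with a sample left out 0 to 2 lay below and 0 to 2 above, 2 below without WT 3 and 2 above without cKO 2.

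Of 334 values for single peaks 20 changed sign. With the −log10 q in place of fold they were 0.0045 (Hnf4a peak 8), 0.094 (16), 0.030 (23), 0.036 (25), 0.19 (Hnf4g peak 3), -0.045 (4) and 0.11 (13). With median centring they were -0.027 (Hnf4a peak 3) and -0.025 (Hnf4g peak 4). With a sample left out the range was -0.044 to 0.18 at Hnf4a peak 6, -0.22 to 0.12 at peak 16, -0.32 to 0.049 at peak 28, -0.23 to 0.035 at Hnf4g peak 3, -0.0080 to 0.21 at peak 4, -0.097 to 0.046 at peak 13 and -0.43 to 0.011 at peak 15. The causes were not tested.

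The main fit did not take the replicate numbers as pairs. The deviations of samples with the same number correlated at -0.27, -0.0048 and 0.13. These correlations cannot decide whether the samples were paired, because deviations from a group mean cancel out within each group. With the replicate number as a block 0 members passed, the lowest adjusted p of a member was 0.596, and 4 peaks of the genome passed in place of 0. The fold of a peak that was not called is unknown, and the smallest difference that 3 against 3 samples could show at this depth was not determined.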
